A study of Arabidopsis thaliana with 4 samples.

Results

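The transcripts described here were higher in php mutants than in wild-type Arabidopsis thaliana on every array. They were chosen from the deposited values themselves. A probe set, the group of short probes that measures 1 transcript on the Affymetrix ATH1 array, was taken where the lower of its 2 php values lay at least 0.6 log2 units above the higher of its 2 wild-type values. Of the 22746 probe sets that are not controls, 125 met this rule, which is 0.55%. Of these, 7 were set aside by name: 1 with no listed gene and those of AT1G54020, WES1, JAL22, JAL23, MSRB9 and XTH19. That left 118 probe sets. The opposite rule, wild-type above php by the same gap, was met by 133 probe sets, or 0.585%. The gap between genotypes chose these transcripts, so their differences are a description and carry no test.

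Plants of the php mutant were compared with wild-type plants. Both were grown on soil, and their above-ground tissue was taken at 14 days. The labels give 2 arrays a genotype, numbered I and II, and 3 separately derived samples were combined on each. Neither the php allele nor the wild-type accession is named in the labels. Values are log2 levels after GCRMA, the authors' background correction and normalization, so a difference of 1 is a 2-fold difference. An unexpressed probe set sits at a low floor rather than at 0.

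PHP, for PLANT HOMOLOGOUS TO PARAFIBROMIN, is the Arabidopsis counterpart of the Cdc73 subunit of the PAF1 complex. The complex travels with RNA polymerase II and is needed for several histone marks of transcribed genes. In Arabidopsis it is best known for keeping the flowering repressor FLC expressed, so mutants in its subunits flower early.

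On the arrays as a whole, the genotypes had almost the same medians, at 5.58 and 5.60 for php I and php II and at 5.63 on both wild-type arrays. The leaf markers matched the labelled tissue, with 4 measured photosystem and light-harvesting genes at 13.46 or above on every array. Of 8 flower markers listed, 4 were measured, AMS, SPL, INO and AT5G07230. These 4 were under 3 on every array, and so were the root hair genes EXPA7 and EXPA18. PYK10, a root marker that seedling shoots also express, was at 12.31 and 12.17 on the php arrays, against 11.67 and 11.87 on the wild-type arrays. The flower markers AP1, AP3, PI and AG, the seed markers and the senescence marker were not analysed here. In whole shoots, fewer cells of a type and less RNA per cell cannot be told apart. The 18 probe sets of bacterial transcripts added at hybridization were higher on the php arrays by a median of 0.35, from 0.22 to 0.51. The smallest difference of the 118 was 0.65, but the rule itself sets each of them at 0.6 or more. The part of the added transcripts' shift in these differences was not tested.

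The wild-type mean was over 8 for 29 of the 118 probe sets, between 3 and 8 for 79, and under 3 for 10. For those 10, which lay at the floor in wild-type, the size of the difference is not measured and no fold is given. Over the other 108 the php mean exceeded the wild-type mean by a median of 0.96 log2 units, from 0.65 to 2.80. The median over all 22746 probe sets was 0.03. At least 2-fold separated the means of 45 of the 108. Of the 10 at the floor, 6 have 1 gene name: CSLA01, AT1G20390, AT4G23680, scpl31, CYP71B22 and AT1G61667.

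A single annotated gene was listed for 53 of the 118 probe sets, several genes for 2, and no gene for 63. Of those above the floor in wild-type, the 59 without a listed gene differed by a median of 0.96, from 0.70 to 2.80, and the 47 with 1 gene by a median of 0.94, from 0.65 to 2.05. The 3 with the widest gap and no listed gene were 245325_at, 253161_at and 264511_at. The probe set 253161_at was at 10.92 and 10.18 on php arrays I and II, against 8.26 and 8.51 on wild-type arrays I and II. The probe set 264511_at was at 6.26 and 6.69 in php, against 4.50 and 4.76 in wild-type. The widest of them, 245325_at, was at 6.39 and 5.35 in php, against 3.18 and 2.97 in wild-type, close to the floor.

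**Figure D1:**
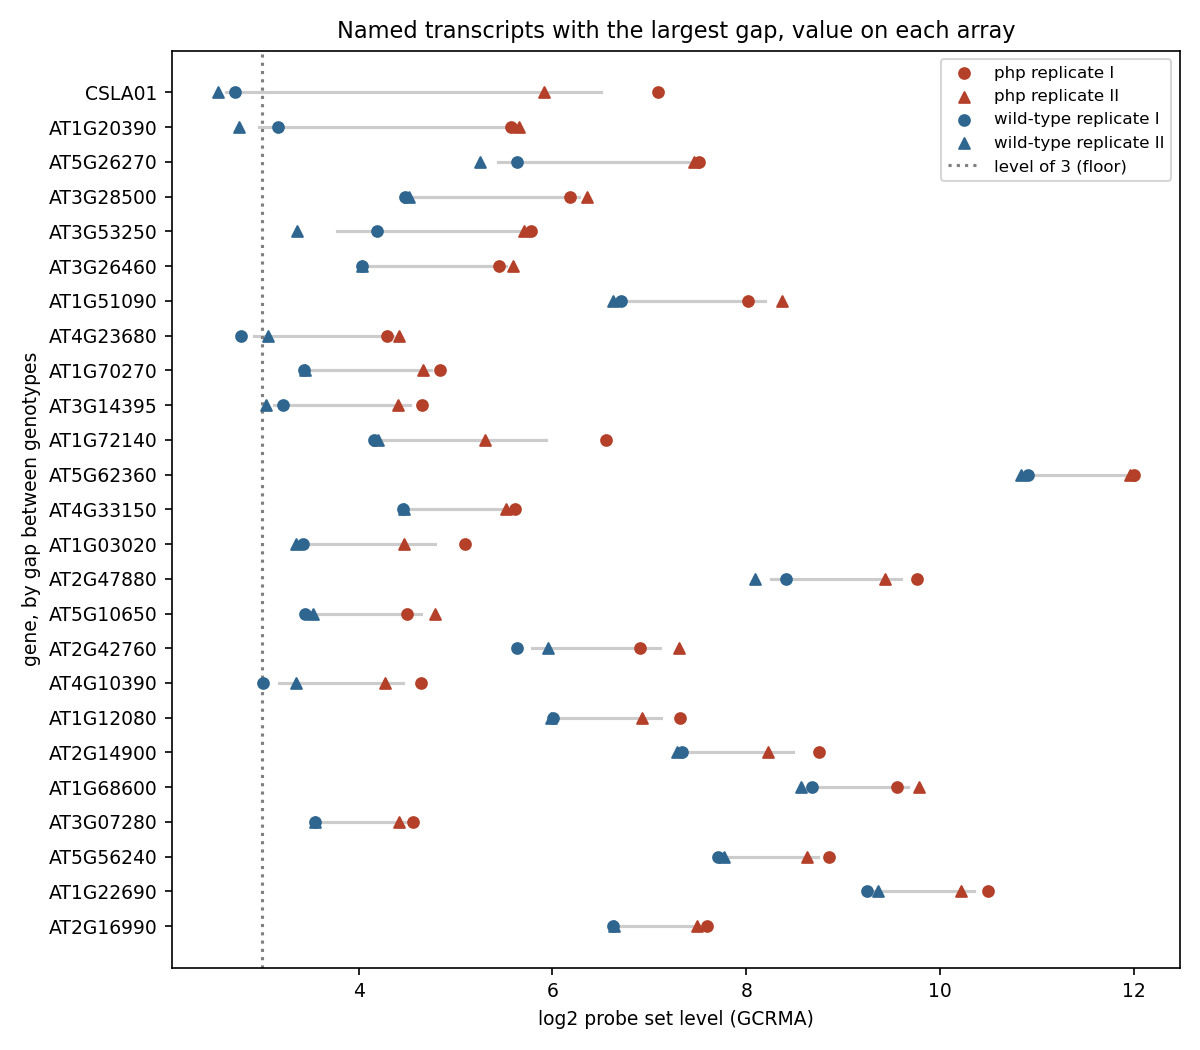
Log2 level on each of the 4 arrays (horizontal axis) for the 25 named transcripts with the widest gap between genotypes, in order of the gap, with php in red and wild-type in blue, circles for replicate I and triangles for replicate II. A grey line joins the 2 means. The levels run from AT5G62360, at 12.00 and 11.97 in php, down to the floor, as for CSLA01 at 2.72 and 2.55 in wild-type.

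Genes grouped here under the cell wall, from background knowledge of their families, made up 6 of the 53. A role of each in the wall was not tested. CSLA01 belongs to the cellulose synthase-like A family, whose characterised members make the mannan backbone of hemicellulose. It was at 7.09 and 5.92 on php arrays I and II, against 2.72 and 2.55 on wild-type arrays I and II. It therefore had a clear level on both php arrays and lay at the floor on both wild-type arrays, and it had the widest gap of all between array values. AT5G62360 belongs to the inhibitors of invertase and pectin methylesterase, which block the enzymes that remove methyl groups from pectin or cleave sucrose. It was at 12.00 and 11.97 in php, against 10.91 and 10.84 in wild-type, 2.16-fold higher. A second gene of that family, AT4G25260, was at 9.08 and 8.78 in php, against 8.15 and 8.02 in wild-type. Its gap of 0.63 was close to the limit. The others were AT1G62500, of the protease inhibitor and lipid transfer superfamily, AT4G30450, a glycine-rich protein gene, and AT4G32290, of a glycosyltransferase family, with differences of 0.74, 0.93 and 0.83.

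Families and pathways around these genes were tested with limma over all 15922 probe sets above the dimmest. The counts given for them leave out any gene higher in php by the gap, while genes lower by that gap, such as SWEET2, are counted. The family lists were made by gene name, so they do not hold AT5G62360, AT4G25260 and other family members known only by a locus number. The list of amino acid breakdown was made by locus, and that of pseudogenes by annotated gene type. A gene passed at an adjusted p under 0.05. Of 6 tested cellulose synthase and cellulose synthase-like genes 0 passed in either direction (2 at an unadjusted p under 0.05), with a median difference of -0.02, against 0.01 over all probe sets tested. Their differences lay between -0.03 and 0.27. CSLC5 was at 8.18 and 8.01 in php, against 7.85 and 7.79 in wild-type, a difference of 0.27 (limma adjusted p = 0.18). CSLC04 differed by 0.19 (limma adjusted p = 0.15). Of 3 tested pectin methylesterase genes 0 passed in limma (1 unadjusted). ATPMEPCRB was at 5.96 and 6.95 in php, against 7.27 and 7.92 in wild-type, and PMEPCRF at 8.78 and 8.85 against 8.50 and 8.39, with limma adjusted p of 0.22 and 0.11. Of 10 tested expansin genes 0 passed (2 unadjusted), with EXLA1 at a difference of 0.84 and EXPB1 at -0.68 (limma adjusted p = 0.35 and 0.10). In the whole comparison limma called 5 of 15922 probe sets, or 0.0314%, with 1 higher (0.00628%) and 4 lower (0.0251%) in php, and none of the 118 was among them. All 118 had an unadjusted p under 0.05 in limma, as had 11.3% (higher) and 12.9% (lower) of all probe sets tested. Nothing is read from either count, since the rule used the same contrast.

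Hormone-related genes numbered 7. YUC2 encodes a flavin monooxygenase of the last step of auxin synthesis, and it had means of 4.65 in php and 3.80 in wild-type. AT3G53250, named SAUR57 in the RefSeq annotation, belongs to a family of small transcripts that auxin induces quickly. It was at 5.78 and 5.71 on the php arrays, against 4.19 and 3.37 on the wild-type arrays. Its php arrays were close together while its wild-type arrays differed by 0.82, the widest wild-type spread among the 118. AT2G14900 and AT1G22690 encode small cysteine-rich proteins of the gibberellin-regulated GASA family. AT2G14900 was at 8.75 and 8.23 in php, against 7.33 and 7.28 in wild-type, 2.26-fold higher. AT1G22690 was at 10.50 and 10.21 in php, against 9.25 and 9.36 in wild-type, 2.08-fold higher. Both were well above the floor on every array.

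AT5G05600 encodes a 2-oxoglutarate-dependent oxygenase that hydroxylates, and so inactivates, jasmonic acid. It was at 8.34 and 7.47 in php, against 6.83 and 6.73 in wild-type. The php arrays disagreed by 0.87, and its difference of 1.13 was 0.69 without php replicate I. AT5G10650, a RING-type ubiquitin ligase gene linked to jasmonate responses, was at 4.50 and 4.79 in php, against 3.45 and 3.53 in wild-type. AT5G13200 encodes a GRAM-domain protein induced by abscisic acid and had means of 7.06 in php and 6.07 in wild-type.

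The auxin families around these genes were few on the part of the array that is named here. Of 3 tested IAA repressor genes 0 passed in limma (1 unadjusted), and their median difference was 0.38. IAA29 was at 7.05 and 6.28 in php, against 6.19 and 4.55 in wild-type, and IAA18 at 8.28 and 8.37 against 7.86 and 8.02 (limma adjusted p = 0.31 and 0.13). Neither overlapped between genotypes, which held with php higher for 33.2% of all probe sets tested. Both had less than the gap asked for here. The YUCCA genes YUC4, YUC6 and YUC11 were at the floor in both genotypes, between 2.01 and 2.21, so of the 4 YUCCA genes with a named probe set only YUC2 was above the floor. Of 2 tested GH3 genes, which conjugate amino acids to auxin and other hormones, 0 passed in limma (1 unadjusted). WES1, which was set aside, is not counted. GH3.3 was at 8.66 and 7.79 in php, against 7.55 and 6.98 in wild-type (limma adjusted p = 0.23). GH3.17 was at 5.14 and 5.17 in php, against 5.44 and 5.80 in wild-type (limma adjusted p = 0.19).

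Transport and ion-binding genes made up 6. AT1G72140 belongs to the NRT1/PTR family of nitrate and peptide transporters and was at 6.55 and 5.31 in php, against a mean of 4.18 ± 0.03 (SD, n = 2) in wild-type. Its php arrays differed by 1.25, and its difference of 1.75 was 1.13 without php replicate I. AT1G51090, which encodes a heavy-metal-associated domain protein, was at 8.01 and 8.37 in php, against 6.70 and 6.63 in wild-type, 2.88-fold higher. AT1G68600, of the aluminium-activated malate transporter family, was at 9.55 and 9.79 in php, against 8.68 and 8.57 in wild-type. AT2G16990, a major facilitator gene, was at 7.60 and 7.49 against 6.63 and 6.64. All 3 were well above the floor on every array.

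SWEET16 encodes a sugar transporter of the vacuole membrane and had means of 7.49 in php and 6.70 in wild-type. It differed by 0.77 and 0.81 for replicates I and II. Of 6 other SWEET genes tested 0 passed in limma (4 unadjusted), with a median difference of 0.23. SWEET2, also a vacuolar transporter, lay the other way, at 6.66 and 6.58 in php against 7.49 and 7.51 in wild-type (limma adjusted p = 0.09). SWEET13 was at 6.72 and 6.36 against 6.11 and 6.16 (limma adjusted p = 0.22). The comparison with the SWEET family was added after SWEET16 was seen among the 118.

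AT1G10090, of the OSCA family of calcium-permeable channels, is the 1 gene among the 53 with a further probe set on the array. The probe set that met the rule was at 8.72 and 8.46 in php, against 7.81 and 7.80 in wild-type. The other, which the rule did not choose, was at 9.05 and 9.19 in php, against 8.47 and 8.70 in wild-type. It lay in the same direction, with a difference of 0.54 (SE 0.11), and did not pass over all probe sets (limma adjusted p = 0.115). Both probe sets were read on the same arrays.

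**Figure D2:**
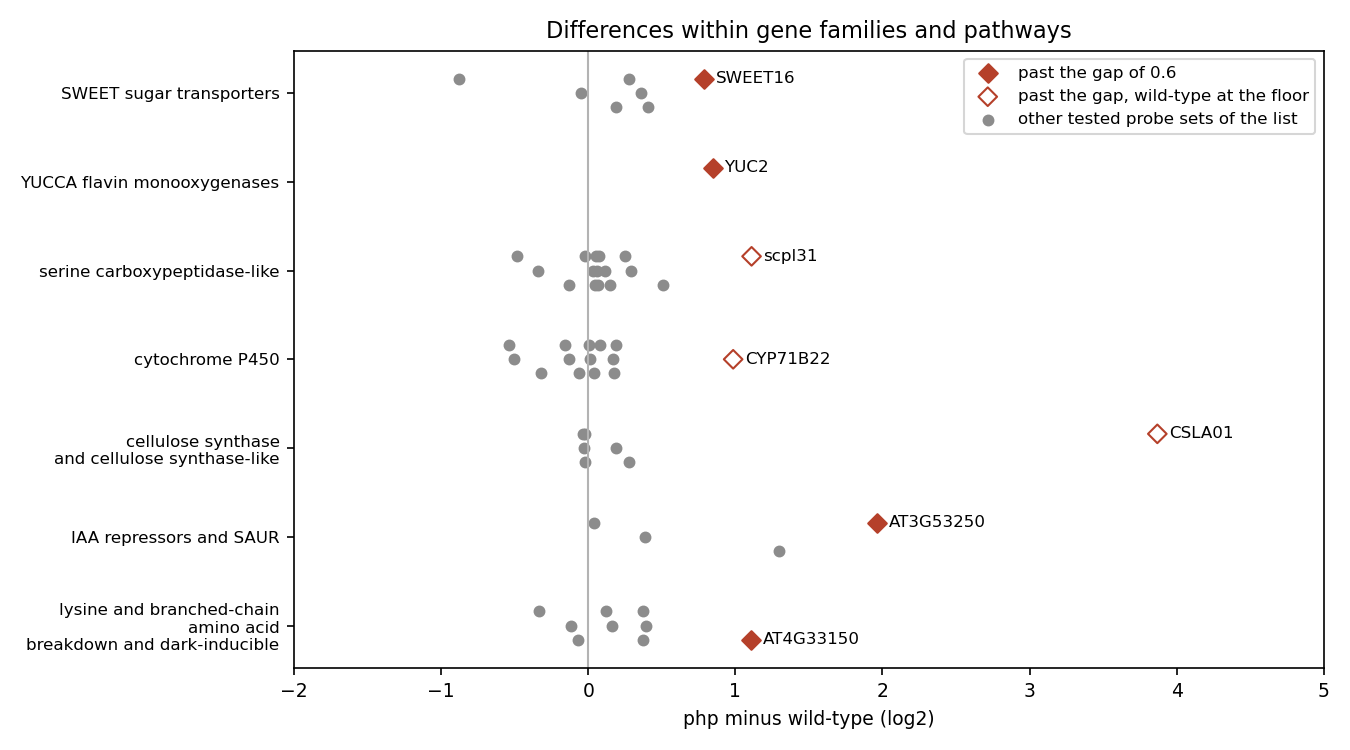
Difference php minus wild-type on the log2 scale (horizontal axis) for the tested probe sets of 7 families and pathways. Those higher in php by the gap of 0.6 are red diamonds with their names, and the others are grey points. Open diamonds mark CSLA01, scpl31 and CYP71B22, at the floor in wild-type, where the size of the difference is not measured. Among the grey points SWEET2, lower in php by more than the gap, lay at -0.88 and IAA29 at 1.30.

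Metabolic and redox enzymes made up 9. AT4G33150 encodes LKR/SDH, the bifunctional enzyme that starts lysine breakdown. It was at 5.62 and 5.52 in php, against 4.46 and 4.47 in wild-type, 2.15-fold higher. FDH, the mitochondrial formate dehydrogenase gene, had means of 10.73 in php and 9.94 in wild-type. The list of lysine and branched-chain amino acid breakdown and of dark-inducible genes held 20 loci, of which 9 had a named probe set. Loci listed for dark induction alone were not among the 9 and were not tested. Of the 8 tested besides AT4G33150, 0 passed in limma (3 unadjusted), with a median difference of 0.14, from -0.33 to 0.39. ALDH6B2, a dehydrogenase of valine breakdown, was at 10.17 and 10.16 in php, against 9.82 and 9.73 in wild-type (limma adjusted p = 0.09). IVD, a dehydrogenase of leucine breakdown, was at 7.08 and 6.62 in php, against 6.53 and 6.43 in wild-type (limma adjusted p = 0.31).

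AT1G03020 and AT2G47880 encode glutaredoxins of the plant-specific CC type, small proteins that bind TGA transcription factors. AT2G47880 was at 9.77 and 9.43 in php, against 8.42 and 8.09 in wild-type, 2.54-fold higher. Replicate I was above replicate II in both genotypes by a similar amount, and the difference was 1.35 and 1.34 within replicates I and II. AT1G03020 was at 5.10 and 4.47 in php, against 3.43 and 3.36 in wild-type. Of 4 other glutaredoxin genes tested, 0 passed in limma (3 unadjusted), and their median difference was 0.34. Of these 4, 3 were higher in php without overlap and 1 lower. Over all probe sets tested, 33.2% were higher without overlap and 27.4% lower. GRX480, another CC-type gene, was at 4.85 and 5.61 in php, against 4.74 and 4.84 in wild-type, and ROXY1 at 4.27 and 3.97 against 3.80 and 3.71 (limma adjusted p = 0.39 and 0.20). GRXC1, the lower one, differed by -0.32 (limma adjusted p = 0.13).

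AT3G50210 encodes an oxygenase of the same superfamily as AT5G05600 and was at 7.70 and 7.91 in php, against 6.88 and 6.84 in wild-type. AT3G50250 stands close to it in the TAIR10.1 gene order, with 3 genes between them, and was at 4.84 and 4.64 against 3.85 and 3.96. This was the only pair of named loci among the 53 within 10 steps of each other. AT3G50250 was read by the probe set 252198_x_at, and shared hybridization with other transcripts was not tested. The remaining enzymes were AT5G05320, an FAD-dependent oxidoreductase, AT1G75880, a GDSL-type lipase, scpl31, a serine carboxypeptidase-like protein, and CYP71B22, a cytochrome P450. Means were 5.54 in php and 4.65 in wild-type for AT5G05320, and 4.63 and 3.74 for AT1G75880. They were 3.58 and 2.47 for scpl31, and 3.51 and 2.53 for CYP71B22. The last pair was at the floor in wild-type and less than 1 log2 unit above the level of 3 in php. Of 13 other tested cytochrome P450 genes 0 passed (1 unadjusted), with CYP71B36 at -0.54 and CYP71B24 at -0.51 (limma adjusted p = 0.30 and 0.24). Of 15 other tested carboxypeptidase-like genes 0 passed (5 unadjusted), with scpl48 at 0.51 and scpl29 at -0.49 (limma adjusted p = 0.10 and 0.09).

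Other stress and metabolic lists held no transcript of the 118, and 0 of their tested genes passed in limma. Of 5 tested dehydrin and late embryogenesis genes (3 unadjusted), COR47 differed by 0.75 and AT2G44060 by -0.27. Of 32 UDP-glycosyltransferase genes (7 unadjusted), UGT85A5 differed by 0.63 and UGT87A2 by -0.59. Of 5 peroxidase genes (2 unadjusted), AT5G64120 differed by -0.74 and PRXR1 by 0.34. Of 6 WRKY genes (1 unadjusted), WRKY20 differed by 0.34 and WRKY53 by -0.26. The other subunits of the PAF1 complex, and named lists of acidic ribosomal proteins, GDSL lipases and ERF factors, were not analysed here.

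AT3G26460 and AT4G23680 encode proteins related to the major latex proteins, a family with a fold that binds lipids and other hydrophobic ligands. AT3G26460 was at 5.45 and 5.59 in php, against 4.03 on both wild-type arrays, 2.80-fold higher. AT4G23680 was at 4.30 and 4.42 in php, against 2.78 and 3.06 in wild-type, at the floor. Each has a gene of the same family beside it. AT3G26450, next to AT3G26460, differed by 0.49, and AT4G23670, next to AT4G23680, differed by 0.14. Both neighbours were higher on the php arrays than on the wild-type arrays. Shared hybridization between such relatives was not tested.

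With these neighbours included, 49 loci that directly adjoin one of the named genes had a probe set with 1 gene. Their median difference was 0.04, from -0.47 to 0.49, against 0.03 over the 13333 loci with such a probe set. Genotypes did not overlap, with php higher, at 53.1% of these neighbours and at 54.7% of all loci. Over all probe sets that share was 51.1%, with 19.3% lower. The named transcripts came from all 5 nuclear chromosomes, with 15, 7, 12, 8 and 11 from chromosomes 1 to 5, which is between 0.317% and 0.435% of the named probe sets of each. The plastid genome gave 0 of 69.

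Genes for translation, RNA, chromatin and signalling numbered 4. AT3G28500, of the acidic ribosomal proteins that form the stalk of the large subunit, was at 6.18 and 6.36 in php, against 4.48 and 4.52 in wild-type, 3.40-fold higher. AT4G10390, a protein kinase gene, was at 4.64 and 4.27 in php, against 3.01 and 3.35 in wild-type. AT1G78260 encodes an RNA-binding protein with an RNA recognition motif and had means of 6.46 in php and 5.57 in wild-type. AT2G24530, linked to the SAGA histone acetyltransferase complex, was the member closest to the limit, at 5.20 and 5.22 in php against 4.53 and 4.59 in wild-type, a gap of 0.607.

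Pseudogenes of the TAIR10.1 annotation were 2 of the 53. AT1G20390 was at 5.58 and 5.66 in php, against 3.17 and 2.76 in wild-type, where its mean was at the floor. It had the second widest gap of the 118, with php arrays 0.08 apart. AT3G07280, a transcribed pseudogene, was at 4.56 and 4.42 in php, against 3.55 on both wild-type arrays. Of the 13333 loci with a probe set 998 are pseudogenes there, or 7.49%, against 3.77% of the named loci among the 118. Limma tested 267 other pseudogene probe sets and 0 passed (104 unadjusted), with AT5G35260 at 0.93 and AT4G16870 at -0.91 the widest (limma adjusted p = 0.16 and 0.093). Over all probe sets tested, 11.3% (higher) and 12.9% (lower) had an unadjusted p under 0.05 in limma. Of these 267, 247 had a mean level under 4. Php was higher without overlap at 96.8% of the 247, and at 58.1% of other tested probe sets under 4. The part of the level in this was not tested.

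No role is given here for the remaining 17 named genes. AT5G26270 differed most, at 7.51 and 7.46 in php against 5.63 and 5.25 in wild-type, 4.13-fold higher. AT2G42760 was at 6.91 and 7.31 in php, against 5.63 and 5.95 in wild-type, with replicate II the higher one in both genotypes. AT1G12080 was at 7.31 and 6.92 in php, against 6.01 and 5.99 in wild-type. AT5G56240 was at 8.85 and 8.63 in php, against 7.71 and 7.77 in wild-type, well above the floor on every array. Lower levels held for AT1G70270, at 4.84 and 4.66 in php against 3.44 and 3.45 in wild-type, and for AT3G14395, at 4.66 and 4.40 against 3.22 and 3.04. Among the other 11, AT3G50250 is given above and AT1G61667 lay at the floor in wild-type, and differences ran from 0.67 for AT2G27740 to 0.94 for AT5G57340. They were AT1G31790, AT1G61667, AT2G27740, AT2G32340, AT3G20300, AT3G28270, AT3G50250, AT3G51400, AT5G18130, AT5G25270 and AT5G57340.

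Within replicate numbers, the php minus wild-type difference of the 108 above the floor had a median of 0.999 for replicate I, from 0.63 to 3.21, and of 0.903 for replicate II, from 0.62 to 2.39. The php arrays were less alike than the wild-type arrays. The absolute difference between arrays of 1 genotype had a median of 0.20 in php and 0.11 in wild-type over the 118. Over all probe sets with a mean of at least 3 it was 0.12 in php and 0.09 in wild-type. More than 0.5 separated the php arrays for 15 of the 118, or 12.7%, and the wild-type arrays for 8, or 6.78%. Over all probe sets with a mean of at least 3 these shares were 5.43% in php and 4.60% in wild-type. The array php I was the higher php array for 79 of the 118, or 66.9%, and for 57.0% of probe sets with a mean of at least 3.

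**Figure D3:**
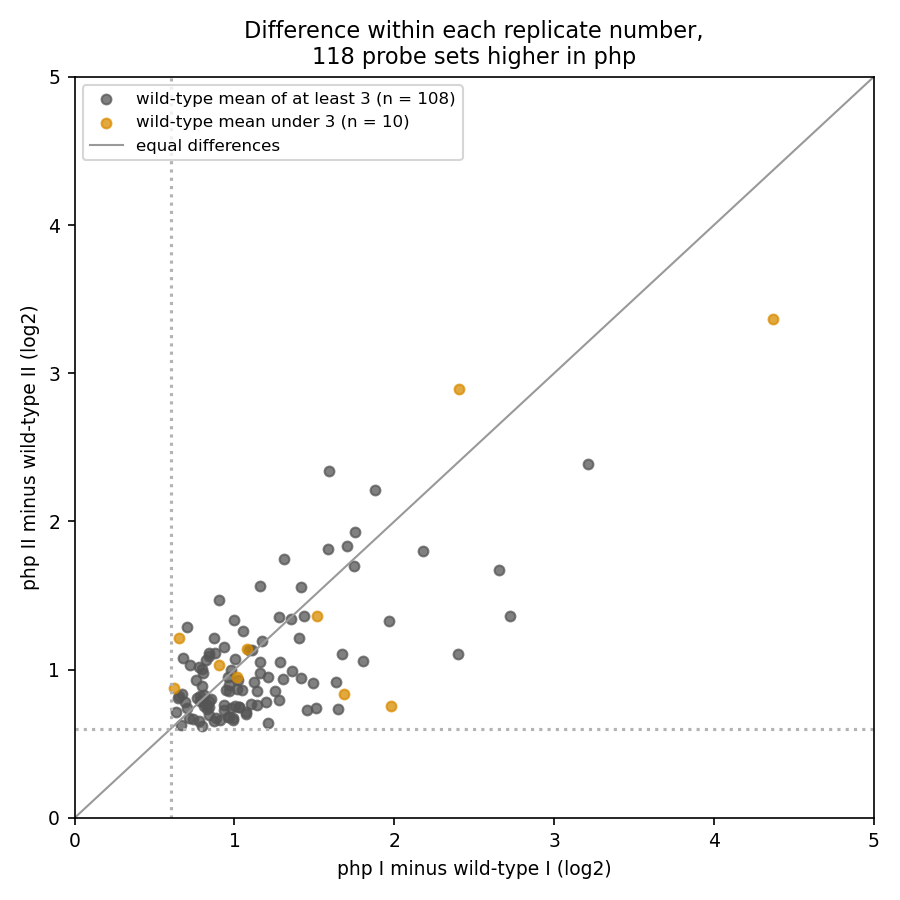
Difference php I minus wild-type I (horizontal axis) against php II minus wild-type II (vertical axis), both log2, for the 118 probe sets, with the 10 at the floor in wild-type in orange. The solid line marks equal differences and the dotted lines 0.6. All points lie past 0.6 on both axes, as the rule requires, and the distance of the orange points is not a measured size.

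By level, transcripts past the gap were most frequent in the lower middle of the range. Of the 2603 probe sets with a mean of 4 to 6 over the 4 arrays, 37 are among the 118, or 1.42%. The share was 0.938% at 3 to 4, with 13 of 1386, and 0.544% at 10 or above, with 11 of 2023. No probe set with a mean under 3 met the rule, out of 8014, although php was higher without overlap on 90.5% of those. The median difference over all 8014 was 0.04. Before the named exceptions, 42 probe sets at 4 to 6 were higher by the gap and 43 lower. At 6 to 8 these were 35 and 52, at 8 to 10 they were 24 and 18, and at 10 or above 11 and 7.

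**Figure D4:**
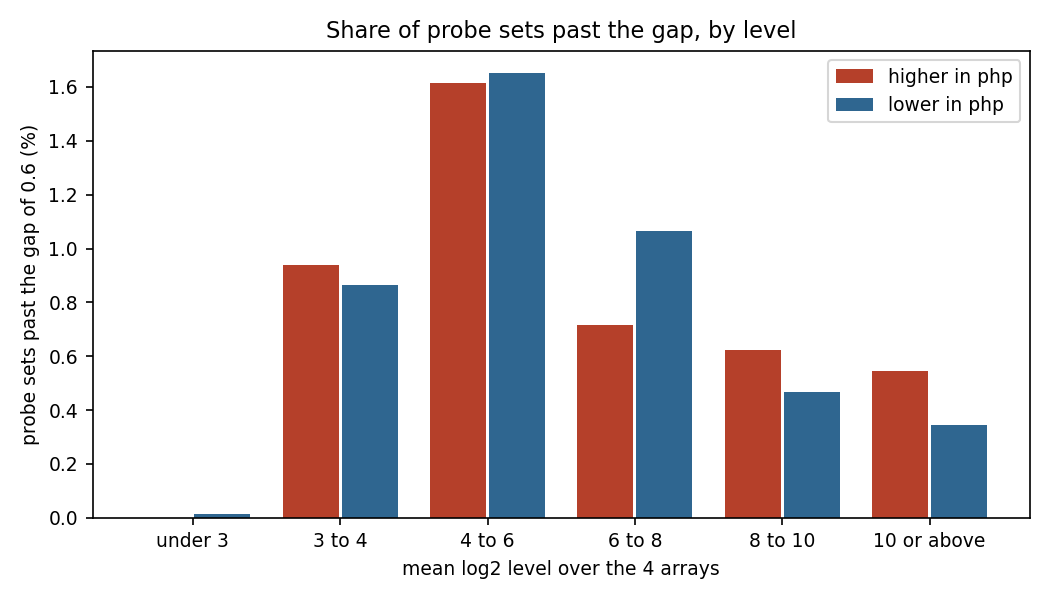
Percent of probe sets past the gap of 0.6 (vertical axis), higher in php in red and lower in php in blue, by mean log2 level over the 4 arrays, with the exceptions by name included. Both directions peak at a level of 4 to 6, at 1.61% higher and 1.65% lower.

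At the limit, the 3 probe sets just inside had gaps of 0.607, 0.618 and 0.623, AT2G24530 and 2 with no listed gene. The 3 just outside had gaps of 0.598, 0.597 and 0.591. The first of these, AT1G67865, was at 12.20 and 12.21 in php, against 11.60 and 11.43 in wild-type, and the other 2 have no listed gene.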

How the data were processed

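Arabidopsis shoots of 2 genotypes were measured on 4 Affymetrix ATH1 arrays. The deposited values are log2 levels, which the authors corrected for background and normalized with GCRMA, per the series' design text. MAS5 is also named in the submitters' processing notes, with no role and no version. The 64 control probe sets were left out, and the members and lists were chosen with earlier results of these data known. The SWEET, YUCCA, glutaredoxin and carboxypeptidase lists were added after the members were seen. Gene names came from the platform annotation (13513 probe sets with 1 gene, 503 with several, 8730 not listed) and, for 13484 probe sets, from the RefSeq annotation of TAIR10.1. Roles of genes are background knowledge, since that annotation gives few. Sequences were not analysed here.

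The members carry no test. Other genes were tested with limma 3.58.1 in R 4.3.3 (lmFit, eBayes with trend, two-sided, Benjamini-Hochberg over 15922 probe sets), with the 30% dimmest left out, up to a mean of 2.641. The procedure was tested on simulated data, drawn with the same spread for every probe set and with independent arrays. These arrays have neither, so that test does not cover their spread. An exact permutation test of 2 arrays against 2 could reach no useful p, and p-values measure only the spread between these arrays. Arrays have no read depth, so their number limits precision. Per-array values were to be given for the 25 named members with the widest gap and for members sharing a family or standing close together. The same held, in each list, for the 2 tested genes with the largest absolute difference among those not higher in php by the gap. Those named beyond this rule were chosen after their values were seen. Figures used matplotlib 3.10.9 in Python 3.11.15.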

Additional observations from a re-analysis of the deposited data

Results flagged for a closer look

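Of the control probe sets, which the comparison did not use, the rRNA controls and the transcripts added at hybridization were higher on the php arrays. The 25S rRNA control was at 6.30 and 6.97 on php arrays I and II, against 5.40 and 5.50 on wild-type arrays I and II, a difference of 1.18. The 5S rRNA control was at 5.05 and 5.59 in php, against 4.38 and 4.09 in wild-type, a difference of 1.09. The 18 probe sets of the transcripts added at hybridization had a median difference of 0.35. The 27 probe sets of the poly(A) transcripts added earlier had a median difference of -0.07, from -0.31 to 0.10, and the 17 other controls one of 0.03, from -0.40 to 0.26. Their part in the differences of the 118 was not tested.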

How the results depend on the processing

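The number of members follows the gap asked for, at 200 for 0.5 and 52 for 0.8, against 118. With 1 array left out, which leaves fewer values to separate, it was 247 to 364. When php was set only against wild-type of the same replicate number, a choice added after seeing the data, it was 212. All 118 had to be among them, since the rule that chose them is the stricter one. Quantile normalization gave 123, of which 116 were the same probe sets, and median centring 138, with all 118 kept. The 10 members at the floor were 1 with a floor of 2.5, 19 with a floor of 3.5, and 5 with a gap of 0.8. Of the 5 probe sets limma called, 0 remained without the filter on dim probe sets (8020 at an unadjusted p under 0.05). With the lowest 50% left out 21 were called, 8 of them among the 118, and with median centring 9, 1 of them among the 118. Nothing is read from this overlap either, since the rule and limma used the same contrast. With the replicate number as a block limma called 0 (4311 unadjusted). With any 1 of the 4 arrays left out it also called 0 (1912 to 4006 unadjusted). Replicates with the same number deviated together (r = 0.52 across probe sets), but no source ties the number to a shared batch. No gene of the lists passed under any of these settings. Of the 53 named members, 2 moved by more than 1.5 times with an array left out, AT5G05600 to 0.69 and AT1G72140 to 1.13 without php replicate I. None could change direction this way, since the rule sets every php value at least 0.6 above every wild-type value.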

Other observations

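Pseudogenes other than the named pair lay mostly on the php side of wild-type at low levels. Of the 247 tested pseudogene probe sets with a mean under 4, 239 were higher on both php arrays than on either wild-type array, or 96.8%, and the median difference over all 247 was 0.19. Of the 2329 other tested probe sets under 4, 58.1% were, and the median difference over all 2329 was 0.07. At a mean of 4 or above it was 8 of 22 pseudogene probe sets, or 36.4%, with the named pair among them, and 27.6% of 13324 others. Over all probe sets, tested or not, php was higher without overlap on 90.5% of those with a mean under 3 and on 49.6% of those at 3 to 4. The median level was 2.90 for the pseudogenes under 4 and 3.06 for the others. The part of the level in this was not tested.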
